A study of Mus musculus with 18 samples.

Results

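Genes of megakaryocytes and platelets were followed through early reprogramming of mouse blood-forming cells: Itga2b, Itgb3, Gp1bb, Gp9, Gp5, Pf4, Ppbp, Vwf, Plek and Treml1. They were taken by symbol and are 10 of the 36655 symbols in the deposited expression table, and each symbol was found. RNA came from C57BL/6 all-iPS mice, that is, mice grown wholly from induced pluripotent stem cells, whose genome carries Oct4, Sox2, Klf4 and c-Myc under doxycycline control. Every group shares this transgene set, controls included; ages of the mice are not given in the labels used. The blood cell types were myeloid progenitors (MP), haematopoietic stem cells of the short-term kind (ST-HSC) and of the long-term kind (LT-HSC). Each was sampled in culture for 2 or 4 days under the titles D (2D, 4D) and N (2N, 4N), and uncultured (0). By the series design D cells received doxycycline and N cells did not. The doxycycline field of 6 of 6 N libraries reads Yes, against that design, and the titles are followed here. Fibroblasts were sampled uncultured and at 2D and 4D.

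Each of the 18 conditions was 1 library, so cell types and days stand in for replicates and all p-values measure the spread between them. Blood libraries were amplified from 25 picked cells each by oligo-dT priming and PCR, and fibroblast libraries were made from Trizol RNA by the standard Illumina route, so cell type and library method cannot be told apart between fibroblasts and blood. Values are FPKM, fragments counted per length of transcript and per depth of library. Depth is unknown, and a gene listed at 0 may have had no reads or an estimate that failed. Total FPKM ran from 677649 to 767866 over the 15 blood libraries and from 524225 to 572069 over the 3 fibroblast libraries. One library stood apart from its label. LT-HSC 0 listed the granule genes Mpo, Elane and Prtn3 at 7525, 13554 and 16683 FPKM, close to the 13224, 19235 and 21209 FPKM of MP 0, whereas LT-HSC 2N listed Mpo at 16.8 FPKM. The same library held stem cell markers, Slamf1 at 34.6 FPKM and Procr at 215 FPKM. Comparisons and averages that use it are given with and without it, save 1 fit that needs it.

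Megakaryocytes are the bone marrow cells that shed platelets. Platelets stick to a damaged vessel when the glycoprotein Ib-V-IX complex (subunits encoded by Gp1ba, Gp1bb, Gp9 and Gp5) catches von Willebrand factor (Vwf), and they bind each other through integrin αIIbβ3 (Itga2b with Itgb3), whose ligand is fibrinogen. Their alpha granules release the chemokines platelet factor 4 (Pf4) and pro-platelet basic protein (Ppbp) together with Vwf, TREM-like transcript 1 (Treml1) lies in alpha granule membranes, and pleckstrin (Plek) is a major substrate of protein kinase C in platelets. Part of the programme is also read in stem cells: Itga2b and Vwf transcripts are known from subsets of mouse haematopoietic stem cells, and Plek is read widely in blood cells. The best-known regulators of the programme are GATA1, FLI1, RUNX1, GFI1B and NFE2.

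The promoters of Itga2b, Gp9 and Pf4 are shown because these genes stand for the integrin, the adhesion complex and the granule cargo. They cover 250 bases before to 50 bases after the gene's start (RefSeq, GRCm38.p6, 5′ to 3′ on the gene's strand). Capitals mark the letters bound by GATA factors in general, GATAA, or the ETS-type letters AGGAAG, named for the family of FLI1, on either strand, so the reverse complement counts too.

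Itga2b, chr11:102469834-102470133, minus strand: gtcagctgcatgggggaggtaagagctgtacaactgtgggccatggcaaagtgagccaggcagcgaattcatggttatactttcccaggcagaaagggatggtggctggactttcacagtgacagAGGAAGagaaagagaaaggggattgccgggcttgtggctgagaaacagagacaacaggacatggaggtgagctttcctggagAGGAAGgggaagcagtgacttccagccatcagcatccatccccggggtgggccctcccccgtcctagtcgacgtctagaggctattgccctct

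Gp9, chr6:87777820-87778119, plus strand: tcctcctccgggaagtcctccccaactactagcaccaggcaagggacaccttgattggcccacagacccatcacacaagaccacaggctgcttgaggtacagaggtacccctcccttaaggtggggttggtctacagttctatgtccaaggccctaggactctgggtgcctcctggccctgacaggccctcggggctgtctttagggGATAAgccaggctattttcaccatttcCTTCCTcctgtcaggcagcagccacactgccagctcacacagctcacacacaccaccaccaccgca

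Pf4, chr5:90772185-90772484, plus strand: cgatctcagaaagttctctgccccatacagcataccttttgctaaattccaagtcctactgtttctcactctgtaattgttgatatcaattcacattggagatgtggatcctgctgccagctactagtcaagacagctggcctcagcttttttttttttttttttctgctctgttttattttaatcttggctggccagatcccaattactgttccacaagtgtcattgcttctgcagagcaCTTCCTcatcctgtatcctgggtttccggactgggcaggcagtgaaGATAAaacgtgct

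The Itga2b window held the ETS-type letters at -125 and -43 from the start and no GATAA. In Gp9 GATAA lay at -43 and the ETS-type letters at -16 on the other strand. In Pf4 the ETS-type letters lay at -9 on the other strand and GATAA at 38 bases after the start. Promoters of 8 of the 10 genes were in the RefSeq table; Itgb3 and Vwf had no entry. GATAA or its complement was in 4 of these 8 windows, against 25.8% of all 27025 promoters of the same length, and AGGAAG or its complement in 5 of 8, against 35.1%. Both were in 3 of 8 (Gp9, Gp5 and Pf4), against 9.3%. The RUNX-type letters TGTGGT or their complement were in 1 of 8 (Gp9), against 16.9%. These matches describe letters, not occupied sites.

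The 10 genes formed no uniform block. Averaged over the 15 blood libraries, Itga2b stood highest at 38.9 FPKM, ahead of Plek at 28.7, Vwf at 26.8, Gp9 at 26.6 and Pf4 at 16.6 FPKM. Itgb3 averaged 5.70, Ppbp 3.64, Treml1 1.69, Gp5 0.596 and Gp1bb 0.153 FPKM. These averages rest on few libraries. Without LT-HSC 0 Vwf averaged 16.9 FPKM and fell behind Gp9 (22.1) and Pf4 (17.8 FPKM), and Itga2b (37.8) and Plek (26.5 FPKM) stayed ahead. Without LT-HSC 4N Pf4 averaged 9.13 and Ppbp 0.331 FPKM, and Plek (29.8) came just above Itga2b (28.7 FPKM). The spread over libraries was wider than the gaps between neighbours in this order, since every one of the 10 was listed at 0 in at least 1 blood library, from 1 of 15 for Itgb3 to 13 of 15 for Gp5. LT-HSC 4N was the library in which 10 of 10 genes reached 1 FPKM. MP 0 and LT-HSC 2N had 8 of 10, and D libraries had 0 to 3 of 10. In LT-HSC 4D 10 of 10 were listed at 0.

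**Figure D1:**
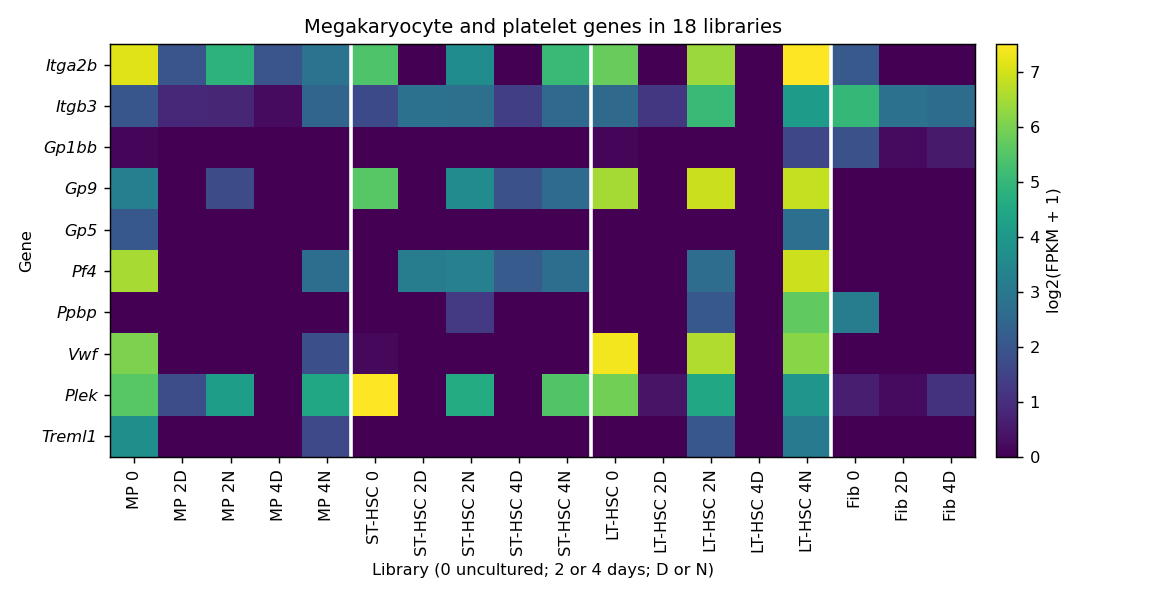
Level of each of the 10 genes, log2(FPKM + 1), in each of the 18 libraries (colour), with genes in rows and libraries in columns. LT-HSC 4N is filled in every row, and D columns are near empty beside N and uncultured columns of the same cell type.

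Summed over the 10 genes, D libraries held 0 to 14.1 FPKM, N libraries 43.0 to 584 FPKM and uncultured blood libraries 273 to 373 FPKM (273 and 368 FPKM without LT-HSC 0), so no D library overlapped an N library. In bulk samples, fewer cells of a type and less RNA per cell cannot be told apart. Of 37 other platelet and megakaryocyte genes 33 were above 0 in some blood library; the collagen receptor Gp6, the platelet tubulin Tubb1 and the ADP receptor P2ry12, chosen after their values were seen, were listed at 0 in 18 of 18 libraries.

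Itga2b was lower in all 6 D libraries than in any N library. Itga2b (ENSMUSG00000034664, chromosome 11), the αIIb chain, was listed at 2.96 and 2.91 FPKM in MP 2D and 4D, against 28.1 and 6.34 FPKM in MP 2N and 4N. In ST-HSC it was listed at 0 in 2D and 4D, against 11.5 and 33.4 FPKM in 2N and 4N. In LT-HSC it was listed at 0 in 2D and 4D, against 81.7 and 181 FPKM in 2N and 4N. The groups did not overlap, and the gap was widest in LT-HSC and narrowest in MP at day 4. On the log2(FPKM + 1) scale, which understates changes of low genes, the difference of D minus N was -4.40 ± 0.77 (SE; limma adjusted p = 0.008), lower in 6 of 6 pairs of cell type and day. The pairs ran from -7.51 in LT-HSC at day 4 to -0.91 in MP at day 4.

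Plek (ENSMUSG00000020120, chromosome 11) was the other gene lower in 6 of 6 pairs and with no overlap. It was listed at 2.39 and 0 FPKM in MP 2D and 4D, against 17.0 and 21.9 FPKM in MP 2N and 4N. In ST-HSC it was listed at 0 in both D libraries, against 23.6 and 43.0 FPKM in 2N and 4N, and in LT-HSC at 0.323 and 0 FPKM in 2D and 4D, against 21.8 and 14.1 FPKM in 2N and 4N. Unlike Itga2b, it lay at 14.1 to 43.0 FPKM in every N library, whatever the cell type. The difference of D minus N was -4.17 ± 0.44 (limma adjusted p = 0.000661).

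These 2 were the called members among the 8 that could be tested at a mean of at least 1 FPKM, both lower. Of all 12254 genes tested, 8.97% were called, 4.53% as higher and 4.44% as lower, and 2.12% had every D library below every N library. Gp1bb and Gp5 were not tested. Most of the 8 pass the filter through the N libraries. Itga2b and Plek are among them, averaging 0.979 and 0.453 FPKM in D libraries against 57.0 and 23.6 FPKM in N libraries. The count called, the lack of overlap, the shared sign and the median difference are therefore not counted as support. That median was -2.30, beside 0.02 over all genes tested. The gene lists described further below also hold genes that pass through N libraries, and their counts and medians are read with the same limit.

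**Figure D2:**
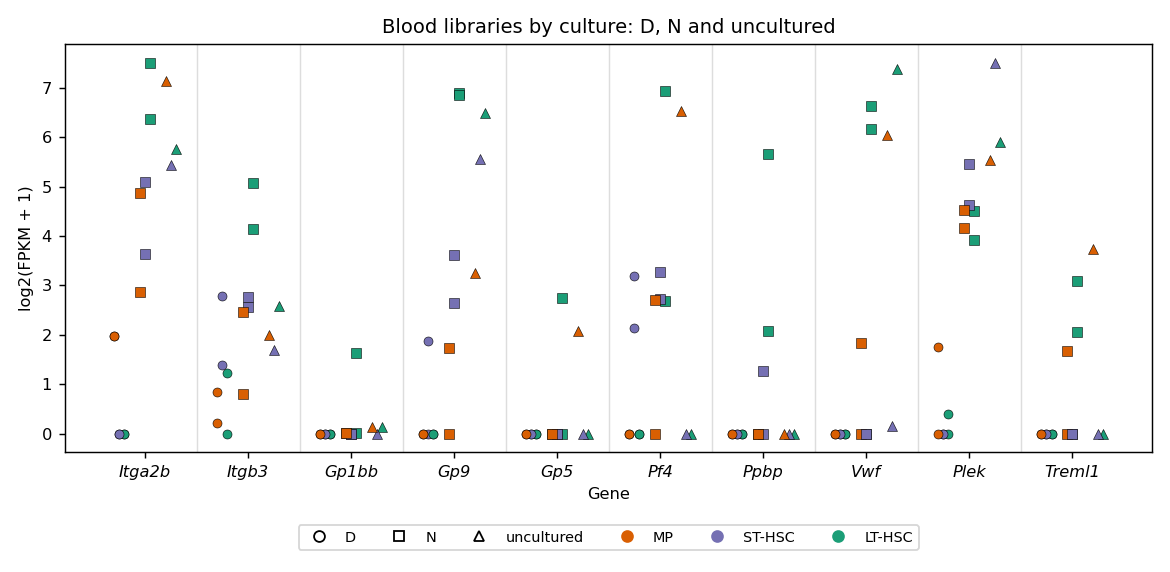
FPKM on a log2(FPKM + 1) axis of each gene in D, N and uncultured blood libraries (points, coloured by cell type). For Itga2b and Plek the D points lie below every N point, at no more than 2.96 FPKM against at least 6.34 FPKM.

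Itgb3 (ENSMUSG00000020689, chromosome 11), the β3 chain that pairs with αIIb in platelets and with αV elsewhere, averaged less over the blood libraries than its partner, though it stood above Itga2b in ST-HSC 2D, ST-HSC 4D and LT-HSC 2D. It was listed at 0.791 and 0.160 FPKM in MP 2D and 4D, against 0.738 and 4.51 FPKM in MP 2N and 4N. In ST-HSC 2D and 4D it was at 5.94 and 1.61 FPKM, against 5.83 and 4.95 FPKM in 2N and 4N, and in LT-HSC at 1.35 and 0 FPKM, against 32.9 and 16.5 FPKM. Values in D were lower in 4 of 6 pairs, by most in LT-HSC, and 2 of 6 pairs were slightly higher in D. The D minus N difference of -1.89 ± 0.63 was not called (limma adjusted p = 0.0982). Of the blood libraries Itgb3 was highest in LT-HSC 2N, at 32.9 FPKM, but uncultured fibroblasts were close at 31.2 FPKM.

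Of the von Willebrand receptor complex, Gp9 (ENSMUSG00000030054, chromosome 6), the small subunit that the receptor needs to reach the surface, was the subunit with sizeable values. It was listed at 0 in MP 2D and 4D, against 2.33 and 0 FPKM in MP 2N and 4N. In ST-HSC it was at 0 and 2.65 FPKM in 2D and 4D, against 11.2 and 5.22 FPKM in 2N and 4N, and in LT-HSC at 0 in both D libraries, against 118 and 115 FPKM in 2N and 4N. Every D library was at or below its N partner, yet the groups overlapped, with ST-HSC 4D above MP 2N and MP 4N. The difference was -3.31 ± 0.94 (limma adjusted p = 0.0588), which misses the threshold of 0.05. Gp5 (chromosome 16), the subunit cleaved by thrombin, was listed above 0 in MP 0 (3.22 FPKM) and LT-HSC 4N (5.72 FPKM) alone. Gp1bb (chromosome 16), the beta chain, reached 1 FPKM in LT-HSC 4N (2.10 FPKM) and uncultured fibroblasts (2.67 FPKM) alone. In GENCODE M21 it overlaps Sept5 on the same strand, so reads of the pair may be split between them; Sept5 was at 50.03 FPKM in the same fibroblasts and at most 3.22 FPKM in blood.

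Granule cargo was the most uneven group. Vwf (ENSMUSG00000001930, chromosome 6) was listed at 0 in 6 of 6 D libraries. In N libraries it was at 0 and 2.55 FPKM in MP 2N and 4N, at 0 in both ST-HSC libraries, and at 97.7 and 71.1 FPKM in LT-HSC 2N and 4N. High values were therefore limited, in N cultures, to LT-HSC. The difference of -2.44 ± 0.99 was not called (limma adjusted p = 0.165). Vwf is also read in endothelium. Of 9 endothelial markers, several of which stem cells also express, 1 to 7 reached 1 FPKM in D libraries, 2 to 6 in N libraries and 4 to 6 in uncultured libraries. Their summed level ran from 1.44 to 315 FPKM in D libraries, 28.5 to 369 FPKM in N libraries and 101 to 365 FPKM in uncultured libraries. LT-HSC 2N and 4N, with the high Vwf values of the N cultures, held 349.5 and 369 FPKM, mostly of Esam and Eng. Sums of that order were also found in ST-HSC 0 (365 FPKM, Vwf at 0.112 FPKM) and LT-HSC 2D (315 FPKM, Vwf at 0). LT-HSC 0, with the highest Vwf (166 FPKM), held 216 FPKM. Among the defining markers Cdh5 was listed at 0 in all blood libraries other than ST-HSC 2D and 4D, and Plvap in all other than MP 0. Their part in the Vwf values was not tested.

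Pf4 (ENSMUSG00000029373) and Ppbp (ENSMUSG00000029372) are neighbouring genes on chromosome 5, where no other coding gene lies between them in GENCODE M21. Pf4 was listed at 0 in both MP D libraries, against 0 and 5.51 FPKM in MP 2N and 4N, at 8.12 and 3.43 FPKM in ST-HSC 2D and 4D, against 8.72 and 5.59 FPKM in 2N and 4N, and at 0 in LT-HSC D libraries, against 5.43 and 121 FPKM in 2N and 4N. ST-HSC D libraries thus kept Pf4 values close to their N partners. The difference was -2.16 ± 0.84 and was not called (limma adjusted p = 0.148). Ppbp was listed at 0 in 6 of 6 D libraries and above 0 in 3 of 6 N libraries, at 1.41 FPKM in ST-HSC 2N, 3.22 FPKM in LT-HSC 2N and 49.9 FPKM in LT-HSC 4N. It was not called (-1.50 ± 0.76, limma adjusted p = 0.267). Treml1 (chromosome 17) was listed at 0 in 6 of 6 D libraries and at 2.19 FPKM in MP 4N, 3.15 FPKM in LT-HSC 2N and 7.54 FPKM in LT-HSC 4N, and was not called (-1.14 ± 0.56, limma adjusted p = 0.256). Its highest value lay outside these cultures, in MP 0, at 12.4 FPKM.

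**Figure D3:**
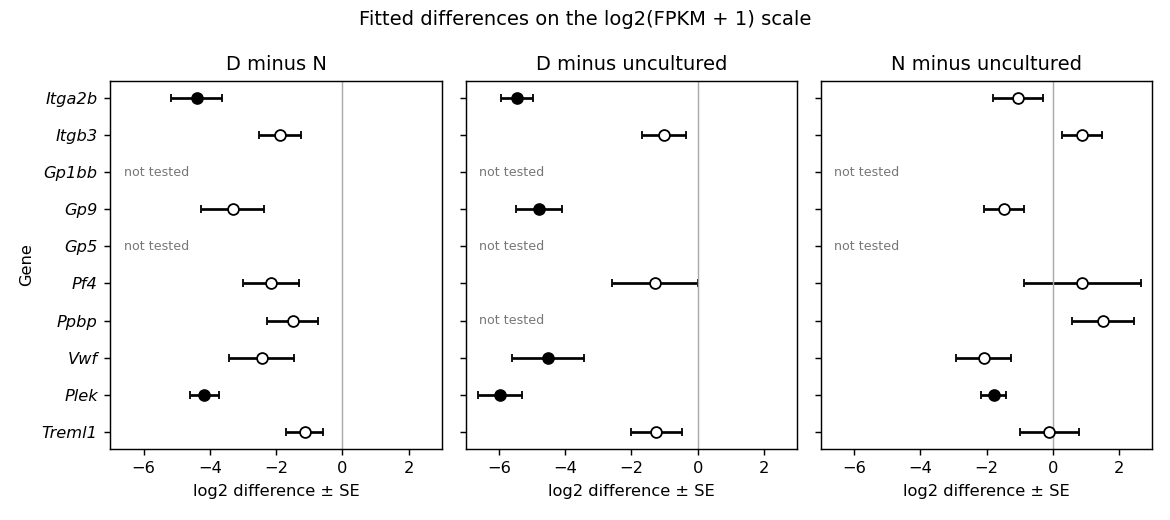
Estimated log2 difference with its SE for each tested gene in the main comparisons (x axis; 0 means no difference). The points of Itga2b (-4.40) and Plek (-4.17) in D minus N lie farthest below 0 for that comparison.

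In culture without doxycycline 1 of the 8 tested members fell. Plek was at 17.0 and 21.9 FPKM in MP 2N and 4N against 45.8 FPKM in MP 0, at 23.6 and 43.0 FPKM in ST-HSC 2N and 4N against 182 FPKM in ST-HSC 0, and at 21.8 and 14.1 FPKM in LT-HSC 2N and 4N against 59.3 FPKM in LT-HSC 0. All 6 N libraries lay below the uncultured library of their cell type. The difference of N minus uncultured was -1.79 ± 0.37 (limma adjusted p = 0.0199), while of 12060 genes 8.89% were called, 5.8% as higher and 3.08% as lower. Without LT-HSC 0 it was -1.84 and not called (adjusted p = 0.0646), which left 0 of 9 members called, Gp5 then being tested as well (-1.04, adjusted p = 0.542); leaving out all LT-HSC or all ST-HSC libraries also ended the call (adjusted p = 0.084 and 0.177). Fewer of all genes were also called without LT-HSC 0, here and in D minus uncultured, by the counts given with the processing. With every library kept, the median of all genes tested was 0.17.

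The other tested members were not called, and their values by cell type were as follows. Itga2b in MP was at 28.1 and 6.34 FPKM in 2N and 4N against 139.5 FPKM uncultured, and in ST-HSC at 11.5 and 33.4 FPKM against 42.5 FPKM. In LT-HSC it was at 81.7 and 181 FPKM against 53.3 FPKM. Gp9 likewise was at 2.33 and 0 FPKM in MP 2N and 4N against 8.53 FPKM uncultured, at 11.2 and 5.22 FPKM in ST-HSC against 46.4 FPKM, but at 118 and 115 FPKM in LT-HSC against 89.6 FPKM. Both genes lay below the uncultured library in MP and ST-HSC and above it in LT-HSC. Vwf in MP was at 0 and 2.55 FPKM in 2N and 4N against 64.7 FPKM uncultured, and in LT-HSC at 97.7 and 71.1 FPKM against 166 FPKM. In ST-HSC it was at 0 in 2N and 4N against 0.112 FPKM. Pf4 was at 0 and 5.51 FPKM in MP 2N and 4N against 91.1 FPKM in MP 0, but at 8.72 and 5.59 FPKM in ST-HSC and at 5.43 and 121 FPKM in LT-HSC, where the uncultured libraries were listed at 0.

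Whether the N minus uncultured change differed in LT-HSC was tested in a fit added after the data were seen. None of the 8 members was called by limma, while 0.29% of 12060 genes were (0.158% higher and 0.133% lower), and 3 of the 8 had an unadjusted p under 0.05. Relative to ST-HSC and MP the LT-HSC change was 3.34 ± 1.26 higher for Itga2b (adjusted p = 0.343), 2.79 ± 0.97 higher for Gp9 (adjusted p = 0.311) and 4.03 ± 1.48 higher for Treml1 (adjusted p = 0.335). This fit rests on LT-HSC 0 as the only uncultured LT-HSC library and cannot be made without it.

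**Figure D4:**
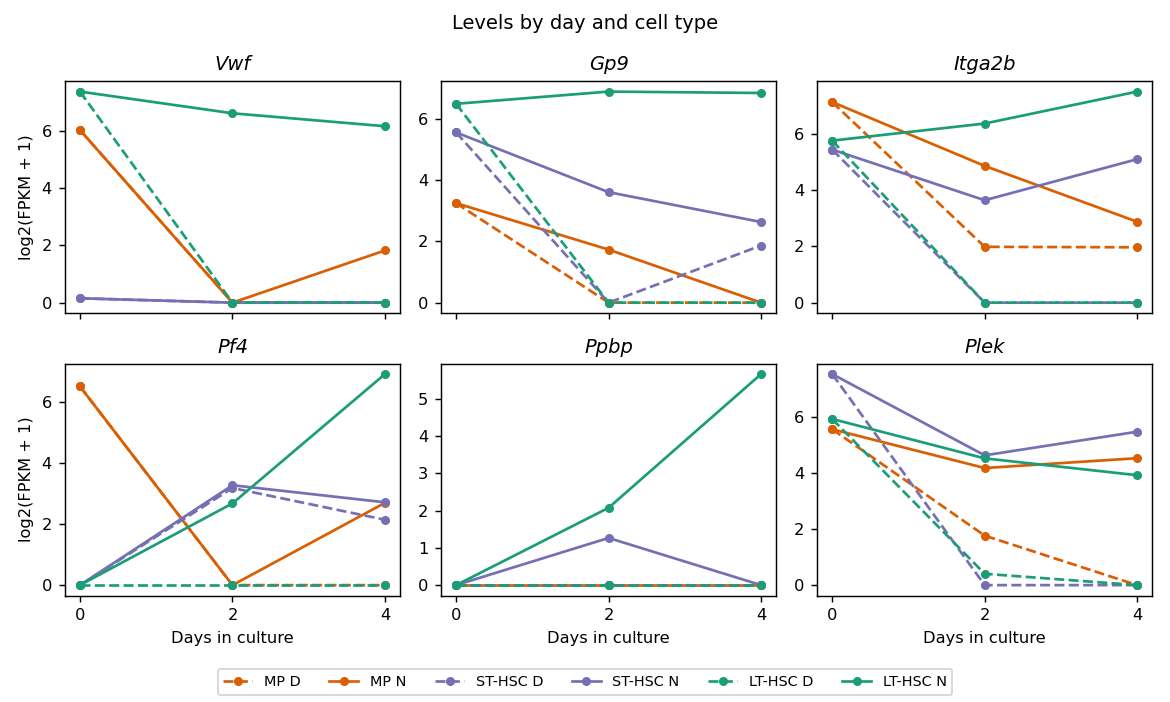
FPKM of the genes against days of culture (0, 2 and 4) on a log2(FPKM + 1) axis, by cell type, with D and N lines from the same uncultured library. Itga2b reaches 181 FPKM in LT-HSC 4N, against 6.34 FPKM in MP 4N.

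Set against uncultured cells, D cultures had 4 of 7 tested members lower, where of 12539 genes 15.3% were called, 9.16% as higher and 6.17% as lower. These were Itga2b (-5.45 ± 0.47, limma adjusted p = 0.000209), Plek (-5.96 ± 0.66, adjusted p = 0.000734), Gp9 (-4.80 ± 0.70, adjusted p = 0.00292) and Vwf (-4.53 ± 1.09, adjusted p = 0.0218). The comparison shares its D and uncultured libraries with the others, so it adds no independent evidence. These 4 averaged 0.979, 0.453, 0.442 and 0 FPKM in D libraries and pass the filter through the uncultured libraries. Their count and shared sign are therefore not counted as support. Without LT-HSC 0 the first 3 remained called and Vwf was not (-3.10, adjusted p = 0.163), nor was Vwf called without the MP libraries (adjusted p = 0.146) or without all LT-HSC libraries (adjusted p = 0.207). The median over all genes tested was 0.23. Pf4, Itgb3 and Treml1 were not called (-1.29, -1.02 and -1.25), and Ppbp, Gp1bb and Gp5 were not tested.

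No member was called between cell types. MP minus the stem cells called 0 of 8 with limma, where 0.297% of 12453 genes were called (0.0402% higher and 0.257% lower), and 1 member (Gp9, -2.40 ± 0.80, adjusted p = 0.215) had an unadjusted p under 0.05. ST-HSC minus LT-HSC called 0 of 8 and 0 of 12419 genes, or 0% in all, although 811 genes had an unadjusted p under 0.05. Vwf, at 0 to 0.112 FPKM in ST-HSC libraries and at 0 to 166 FPKM in LT-HSC libraries, was the 1 member among these (-4.01 ± 1.20, adjusted p = 0.657). Without LT-HSC 0 both cell type comparisons again called 0 of the 8 members, with Gp9 at -2.30 and Vwf at -3.20. The D minus N difference was not called as different between MP and stem cells for any of the 8 (0% of 12254 genes called; for Itga2b 3.76 ± 1.15, adjusted p = 0.427, the 1 member with an unadjusted p under 0.05), nor between day 4 and day 2 (0% called, 0 members and 511 genes with an unadjusted p under 0.05).

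MP 0, one of the richest libraries for these genes, also carried the red cell programme that shares GATA1 with megakaryocytes. There Klf1 was at 141 FPKM, Car1 at 366 FPKM and Epor at 46.2 FPKM, and 8 of 11 erythroid markers reached 1 FPKM against 2 to 5 in the other blood libraries. The summed erythroid level ran from 82.6 to 610 FPKM in D libraries and 51.4 to 1570 FPKM in N libraries. In uncultured libraries it ran from 577 to 1791 FPKM (656 and 1791 FPKM without LT-HSC 0). The highest N sum was nearly all Car2, at 1554 FPKM in LT-HSC 4N, where Klf1 and Car1 were listed at 0. Of 11 erythroid markers 3 were tested in D minus N, and 0 were called. The other marker lists differed in how far they moved between D and N. Over all genes tested in D minus N, 4.53% were called higher and 4.44% lower. Of 8 stem cell markers 1 was called higher and 1 lower in D. Of 7 tested mast cell and basophil markers 1 was lower, of 6 endothelial markers 0, and the 1 tested lymphoid marker was lower. Granulocyte markers (8 genes) summed to 1.83 to 142 FPKM in D libraries and 145 to 35010 FPKM in N libraries. Of these, 7 of 8 were called lower in D. Macrophage markers summed to 1.95 to 78.9 FPKM in D libraries and 155 to 2224 FPKM in N libraries, with 3 of 6 tested called lower. Their part in the D minus N difference of Itga2b and Plek was not tested.

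Fibroblasts were another setting for the integrin. Itgb3 was at 31.2, 5.96 and 5.33 FPKM at 0, 2D and 4D. Itgav, the usual αV partner, was at 139, 48.1 and 64.8 FPKM, whereas blood libraries held at most 13.7 FPKM, and the D minus N difference of Itgav in blood was 0.60 (limma adjusted p = 0.537). Itga2b was at 3.27 FPKM in uncultured fibroblasts and listed at 0 in both D libraries. Gp9, Gp5, Pf4, Vwf and Treml1 were listed at 0 in 3 of 3 fibroblast libraries, and Ppbp was at 7.82 FPKM in the uncultured library alone.

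Platelet genes outside the 10 were called in both directions, though most lay below 0 in D minus N. Of 37, 25 were tested in D minus N, with 20 below 0 and 5 above 0 and a median of -1.37. Some pass the filter through N libraries, so this lean is not counted as support. Of the 25, 6 were called lower and 2 higher, against 4.44% and 4.53% of all genes tested. Nbeal2, needed for alpha granules, was -2.41 (limma adjusted p = 0.00278). The cyclooxygenase Ptgs1 was -4.46 (adjusted p = 0.0134), the ATP-gated channel P2rx1 -3.51 (adjusted p = 0.018) and the G protein signalling regulator Rgs18 -2.78 (adjusted p = 0.0199). The 2 that rose were Ltbp1, which holds latent TGF-β (3.27, adjusted p = 0.00498), and Serpine2, a thrombin inhibitor (2.99, adjusted p = 0.0142); both also occur in many cells outside blood. In N minus uncultured 1 of 25 was lower and 0 higher, against 3.08% and 5.8% of all genes tested. Without LT-HSC 0 this was 1 of 23 lower. In D minus uncultured 7 of 26 were lower and 1 higher, against 6.17% and 9.16% of all genes tested. Among them were P2rx1 (-3.40, limma adjusted p = 0.00639), Arhgap6 (-2.86, adjusted p = 0.0111), the thrombin receptor F2r (-2.21, adjusted p = 0.0286) and Ptgs1 (-3.66, adjusted p = 0.0308). Without LT-HSC 0 this was 1 of 24 lower and 0 higher, while fewer of all genes were called too, by the counts given with the processing. F2r was also the 1 of 26 called between MP and the stem cells (-3.10, adjusted p = 0.0362; without LT-HSC 0 -3.18, adjusted p = 0.0461).

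Genes that signal to the integrin or partner it were next. Of 16, 15 were tested in D minus N, 7 were called lower and 0 higher, with a median of -1.59. Over all genes tested 4.44% were called lower and 4.53% higher. The β1 chain Itgb1 lay at 72.2 to 125 FPKM in D libraries and at 56.0 to 71.6 FPKM in N libraries but was not called (0.51, limma adjusted p = 0.145). Rasgrp2, which activates the small GTPase Rap1, was -4.70 (limma adjusted p = 0.00685), and the adaptor Lcp2 -4.06 (adjusted p = 0.019). Talin (Tln1), which binds the integrin tail, was -1.59 (adjusted p = 0.0221) and the kinase Csk -0.90 (adjusted p = 0.0238). Lyn and Vav1 were -2.43 and -3.42 (adjusted p = 0.0348 and 0.0371). These genes serve other blood cells as well. In N minus uncultured Rap1b was the 1 of 15 called, as lower (-1.02, limma adjusted p = 0.0436), against 3.08% of all genes tested. In D minus uncultured 7 of 15 were lower, against 6.17%. Without LT-HSC 0 these counts were 0 of 15 and 1 of 15, with Rap1b at an adjusted p of 0.0862 in N minus uncultured.

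Of 18 regulators 5 were lower in D than in N and 0 higher, with a median of -1.02. Over all genes tested 4.44% were called lower and 4.53% higher. Nfe2, the factor of late megakaryocytes, was at 6.79 and 6.50 FPKM in MP 2D and 4D against 181 and 259 FPKM in MP 2N and 4N, and at 13.8 and 0 FPKM in LT-HSC 2D and 4D against 461 and 658 FPKM. ST-HSC stayed nearer, at 155 and 185 FPKM in 2D and 4D against 303 and 341 FPKM in 2N and 4N. Its difference was -4.31 ± 0.98 (limma adjusted p = 0.0289), and it was higher in N than in uncultured cells (1.36 ± 0.26, adjusted p = 0.0166), but not called so without LT-HSC 0 (1.20, adjusted p = 0.077). Gfi1b was -3.85 (adjusted p = 0.0217) and Runx1 -1.65 (adjusted p = 0.033); Etv6 (-1.40, adjusted p = 0.0251) and Cbfa2t3 (-2.60, adjusted p = 0.0365) were the other called regulators. Gata1, listed at 0 in 6 of 6 D libraries, was at 16.8 and 8.06 FPKM in MP 2N and 4N, 0 and 2.02 FPKM in ST-HSC 2N and 4N and 0 and 40.6 FPKM in LT-HSC 2N and 4N (-2.38, adjusted p = 0.0803). Fli1 was not called (-2.16, adjusted p = 0.0545). In N minus uncultured Cbfa2t3 was also higher (1.41, limma adjusted p = 0.0363) and Mafk lower (-2.45, adjusted p = 0.0269), where 5.8% and 3.08% of all genes tested were. In D minus uncultured 5 of 18 were lower, against 6.17%. Without LT-HSC 0, Cbfa2t3 and Mafk were not called in N minus uncultured (adjusted p = 0.0618 and 0.0946), and 1 of 18 regulators was lower in each of these comparisons.

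**Figure D5:**
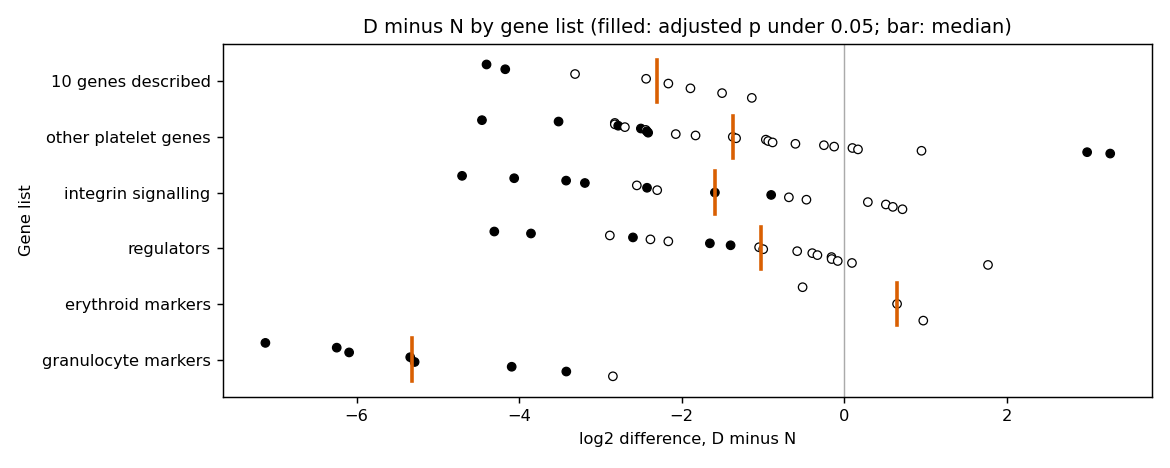
D minus N differences on the log2(FPKM + 1) scale of the tested genes (points) in the 10 genes described, the platelet, integrin and regulator lists and the erythroid and granulocyte markers; filled points are called and bars are medians. In the platelet list 6 of 25 are called lower and 2 higher, and in the integrin list 7 of 15 are lower. Of all genes tested 4.44% are called lower and 4.53% higher.

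Near relatives and neighbours gave few calls. None of the 4 TREM relatives of Treml1 was called in D minus N. Trem1 was lower in N than in uncultured cells (-2.33, limma adjusted p = 0.0494), though not without LT-HSC 0 (-1.35, adjusted p = 0.243). In D minus uncultured 1 of 2 tested relatives was lower, against 6.17% of all genes tested. Without LT-HSC 0 Trem1, listed at 0 in every D library, was called in that comparison (-3.85, limma adjusted p = 0.0188). The chemokine Cxcl2, from the same gene cluster as Pf4 and Ppbp, was listed at 0 in all cultures, against 1.58, 27.9 and 42.6 FPKM in MP 0, ST-HSC 0 and LT-HSC 0. Plek2, the pleckstrin relative, had a D minus N difference of -0.01 and was not called. That value averages opposite pairs, -1.05 and -3.80 in LT-HSC at days 2 and 4 and 3.32 and 1.48 in ST-HSC. Both MP pairs were at 0.

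Across the 15 blood libraries Pearson's r between pairs of the 8 members that passed the mean of 1 FPKM ran from 0.15 (Ppbp and Plek) to 0.85 (Itga2b and Plek), with a median of 0.58 over 28 pairs; without LT-HSC 0 the range was 0.19 to 0.94 and the median 0.66. The libraries share culture and cell type, and many values are 0, so these are descriptions. Outside the members, 4921517L17Rik (r = 0.93), Arhgap6 (0.91), Atp2a3 (0.88), Rnaset2a (0.87) and Tln1 (0.87) were most like the mean of the 8. With Itga2b alone the nearest were Spns3 (0.92), 4921517L17Rik (0.92) and Gaa (0.90). Without LT-HSC 0 the r of these genes was 0.86 to 0.93 with the mean of the 8 and 0.90 to 0.93 with Itga2b. Spns3 was listed at 0 in 6 of 6 D libraries and at 11.3 to 54.9 FPKM in N and uncultured libraries.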

How the data were processed

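RNA was sequenced in 18 libraries. The authors deposited 1 table of FPKM values (36818 entries), made with TopHat and Cufflinks on mm9 per the submitters' processing notes; tool versions: not given in the sources used here, and the unit was read from the values. The 158 symbols on several entries were summed. On log2(FPKM + 1) values, limma 3.58.1 (R 4.3.3; trend and robust options) tested each gene that averaged 1 FPKM or more across the libraries compared; tests were two-sided, adjusted by Benjamini-Hochberg over all genes tested, at 0.05. D minus N used 6 pairs of cell type and day as blocks; comparisons with uncultured cells used cell type, and cell type comparisons used condition. The fits were also run on simulated data made with normally distributed noise. Those data lack the many values listed at 0 here, so the run cannot show how the fits treat such genes. Depth is unknown, so no interval that needs it is given. Members and lists were chosen with earlier results of these data known. All 10 members are named; of the lists, at most 6 called genes by smallest p per fit, plus Itgav, Gata1, Fli1, Nfe2, Gfi1b and Runx1. A single gene among those the rule names is not reported here, though list counts include it. Figures used matplotlib 3.10.9 (Python 3.11.15).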

Additional observations from a re-analysis of the deposited data

How the results depend on the processing

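Itga2b and Plek were called lower in D than in N under every alternative run, with Itga2b's adjusted p between 0.00502 and 0.0265 when a pair was left out. With pairs left out in turn, 2 to 3 members were called; the third was Gp9 without the MP day 4 pair (-3.97, adjusted p = 0.0461). Genes called in D minus N then ran from 529 to 1042, against 1099, and were 524 without both LT-HSC pairs. Against uncultured cells 3 to 4 members were called in D and 0 to 1 in N, and 0 in N without the LT-HSC 0 library, where genes called were 268 in N and 512 in D, against 1072 and 1922. With a cell type left out they ran from 52 to 1194 in N and from 361 to 1207 in D. In MP minus stem cells they were 13 with no filter or without trend and robust options and 0 to 39 with a condition left out, against 37; in the LT-HSC fit they were 84 with a pseudocount of 0.1 and 0 without trend and robust options, against 35. Genes called in N minus uncultured were 636 with no filter and 420 with limma without trend and robust options. Plek in N minus uncultured was also not called without LT-HSC (adjusted p = 0.084) or ST-HSC (0.177), and Vwf in D minus uncultured not without LT-HSC (0.207) or MP (0.146).

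Signs turned only in differences that were not called; the cause was not tested. With a pseudocount of 0.1 these were Treml1 (0.31, N minus uncultured), Plek (0.37, MP minus stem cells), Itgb3 (0.17, ST-HSC minus LT-HSC) and Ppbp (5e-04, day 4 against day 2). Without the LT-HSC 0 library Pf4 in N minus uncultured was -1.09. Without D libraries, Itga2b and Pf4 in MP minus stem cells were -0.68 and 0.47, and Pf4 in ST-HSC minus LT-HSC was -1.21. With a block left out in turn, differences ran as follows. In N minus uncultured Pf4 ran from -1.09 to 3.90, Itga2b from -2.17 to 0.052 and Treml1 from -1.45 to 1.29. In D minus uncultured Pf4 ran from -3.26 to 1.33. In MP minus stem cells Plek ran from -0.43 to 0.25, Treml1 from -0.23 to 0.97, Pf4 from -1.94 to 0.43, Vwf from -1.14 to 0.25 and Itga2b from -0.018 to 1.34. In ST-HSC minus LT-HSC Itgb3 ran from -0.84 to 0.13 and Pf4 from -0.37 to 1.48. For D minus N in MP against stem cells Pf4 ran from -0.24 to 2.57 and Treml1 from -0.38 to 1.29, and for day 4 against day 2 Itga2b from -2.01 to 1.29 and Vwf from -2.67 to 1.30. For LT-HSC against the others in N minus uncultured Plek ran from -0.50 to 0.77 and Vwf from -0.83 to 4.14.

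D minus N is paired by cell type and day, and without that pairing (no replicate block) it also called 2 members; the labels number no replicates, so none was used as a block. The fit for LT-HSC and the alternatives without LT-HSC 0, both LT-HSC pairs or D were added after seeing the data. Unknown depth limits every low value.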
